A study of Junco hyemalis with 13 samples.

Results

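HBAA and HBAD, the genes for the alpha-A and alpha-D chains of haemoglobin, were followed in brain tissue of male dark-eyed juncos as a measure of the blood held in each sample. They were taken as the elements that the study's gene table names HBAA and HBAD, which gave 2 of the 15363 annotated elements, NP_001191172.1 and NP_001191171.1. RNA-seq had been done on hypothalamus punched from frozen brain sections of 7 residents (Junco hyemalis carolinensis, which breed where they were caught) and 6 migrants (J. h. hyemalis, which winter at the same site and breed farther north), with 1 library per bird. All birds were free-living males caught in March 2017, bled from a wing vein, and killed with isoflurane before the brain was removed. No source used here states how old the birds were, and none was treated.

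Haemoglobin carries oxygen in red blood cells and is built of alpha-type and beta-type chains. Red blood cells of birds keep their nucleus, and blood carries haemoglobin mRNA. Adult birds make a major form with the alpha-A chain, encoded by HBAA, and a minor form with the alpha-D chain, encoded by HBAD, each joined to beta-type chains. Their transcripts in a tissue punch are commonly read as blood held in its vessels, although neurons of mammals are also known to make some haemoglobin. The cells that the transcripts came from were not tested. In bulk tissue, more blood in the punch and more haemoglobin mRNA per blood cell cannot be told apart.

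The libraries held 4308064 to 5469786 counted read pairs in residents (median 5014150) and 4319503 to 5826833 in migrants (median 4849133). Levels are given as CPM, counts scaled to a common library size with TMM factors, and the 9938 elements that reached 5 counts in 6 or more libraries were tested. Resident replicate 4 and migrant replicate 1, known from earlier work on these data to lie apart on the first principal component, had the lowest TMM factors (0.897 and 0.905). Several results, though not all, are also given without these libraries. The tissue label was checked against hypothalamic peptide genes. GNRH1, the precursor of gonadotropin-releasing hormone, was at 18.1 ± 7.83 CPM in residents and 7.59 ± 1.13 CPM in migrants, NPVF, the precursor of gonadotropin-inhibitory hormone, at 507.1 ± 211.6 and 357.3 ± 87.6 CPM, and CRH, corticotropin-releasing hormone, at 14.5 ± 7.19 and 10.4 ± 3.94 CPM (SD, n = 7 and 6).

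HBAA was among the most abundant transcripts of the punch. It held rank 8 to 28 of all elements by count in residents and rank 4 to 15 in migrants. The lowest, median and highest resident had 11623, 17259 and 26391 HBAA counts, and the lowest, median and highest migrant 19342, 25240 and 35902. As CPM, HBAA was at 2169, 3688 and 6834 in the lowest, median and highest resident, and at 3223, 5555 and 8667 in the lowest, median and highest migrant. The populations overlapped, since resident replicate 4 lay above every migrant except replicate 5, and 6 of 7 residents lay at or below 4206 CPM.

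HBAD was less abundant and followed the same order of birds closely. It held rank 32 to 73 in residents and rank 19 to 64 in migrants. The lowest, median and highest resident had 1327, 1687 and 3550 HBAD CPM, and the lowest, median and highest migrant 1559, 2874 and 4034 CPM. Resident replicate 4 was again the highest resident and migrant replicate 5 the highest bird of all. Resident replicates 5 and 7 were the lowest birds for both genes.

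**Figure D1:**
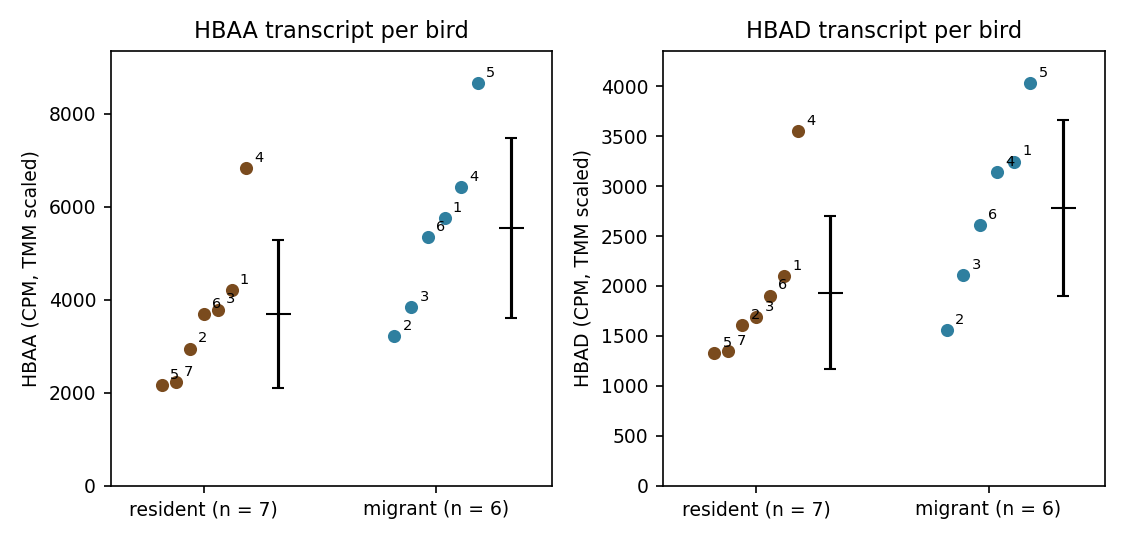
Levels of HBAA (left panel) and HBAD (right panel) in CPM with TMM scaling, on linear axes, for 7 residents (brown) and 6 migrants (blue); each point is 1 bird with its replicate number, and the black bars are the mean ± SD. Residents averaged 3694 HBAA CPM against 5544 CPM in migrants, and resident replicate 4 and migrant replicate 5 are the highest birds of their populations for both genes.

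Together the alpha genes took 0.379% to 0.931% of all counts in residents (mean 0.558% ± 0.194%, SD, n = 7) and 0.493% to 1.22% in migrants (0.815% ± 0.250%, SD, n = 6). Across the 13 birds the share spanned 3.22-fold. Named haemoglobin elements of every kind made up 0.433% to 1.09% of counts in residents and 0.579% to 1.41% in migrants, and HBAA and HBAD held 85.0% to 89.0% of these haemoglobin counts in each bird. Most elements have no name here, so haemoglobin elements may be missing from these sums, and the percentages are not of all haemoglobin transcript. Leaving the named haemoglobin elements out of the library sizes left the log2 difference between residents and migrants at -0.59 for HBAA and -0.53 for HBAD.

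Bird-to-bird variation in the alpha genes was large for transcripts this abundant. The highest bird exceeded the lowest by 4.0-fold for HBAA and 3.04-fold for HBAD. Within populations the SD of log2 CPM was 0.55 for HBAA and 0.49 for HBAD, where the median over the 271 elements with a mean of at least 500 CPM was 0.30. Only 6 of these elements had a larger SD than HBAA, and 14 had a larger SD than HBAD. The lowest library held 7108 HBAD counts, so counting error is a small part of this spread.

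The question put to the populations was whether residents and migrants, caught at one site in early spring, carried the same amount of these transcripts. HBAA averaged 3694 ± 1590 CPM in residents and 5544 ± 1945 CPM in migrants (SD, n = 7 and 6). The log2 fold change of residents over migrants was -0.59 (standard error 0.26, 95% interval -1.13 to -0.038). HBAD averaged 1931 ± 766 CPM in residents and 2783 ± 882 CPM in migrants, a log2 fold change of -0.53 (standard error 0.24, 95% interval -1.02 to -0.030). Neither passed edgeR's quasi-likelihood test over all elements (adjusted p = 0.996 for both), and no element did, 0 of 9938 or 0%. At an unadjusted p under 0.05, edgeR listed 442 elements, 213 of them lower in residents, or 2.14% of those tested, and both alpha genes were among these (unadjusted p = 0.0375 for HBAA and 0.0387 for HBAD). DESeq2 called 3 elements, neither of the alpha genes among them (adjusted p of 0.961 and 0.966), with 502 under an unadjusted 0.05, and limma-voom called 0, with 446.

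An exact two-sided permutation test over all divisions of the birds into groups of 7 and 6 gave p = 0.0728 for log2 HBAA and p = 0.0763 for log2 HBAD. For the summed share of counts the exact permutation p was 0.0519, with a geometric mean in residents 0.679 times that in migrants. Single birds decided on which side of 0.05 these values fell. Without resident replicate 4 the exact permutation p was 0.0195 for HBAA, 0.0173 for HBAD and 0.0152 for the share, and without migrant replicate 2 it was 0.0379, 0.0278 and 0.0240. Without the other 11 birds, 1 at a time, it stayed above 0.05, and it was highest without migrant replicate 5, at 0.149, 0.157 and 0.114. Without both libraries that lie apart it was 0.0346, 0.0303 and 0.0281. The direction, lower in residents, was the same in each of these fits.

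HBAA and HBAD agreed closely from bird to bird. Over 13 birds Pearson's r of log2 CPM was 0.978 and Spearman's rho 0.978 (permutation p = 1e-05 for each, the smallest that 100000 resamples can give, and 3.67e-05 and 0.00011 after Benjamini-Hochberg adjustment over 11 relations). The agreement held within each population, with r = 0.968 in residents (exact permutation p = 0.000595) and r = 0.977 in migrants (exact permutation p = 0.00278). It did not rest on the extreme birds, since r was 0.964 without resident replicate 4 and migrant replicate 5. Of all elements tested, HBAD was the one most like HBAA, and HBAA the one most like HBAD.

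**Figure D2:**
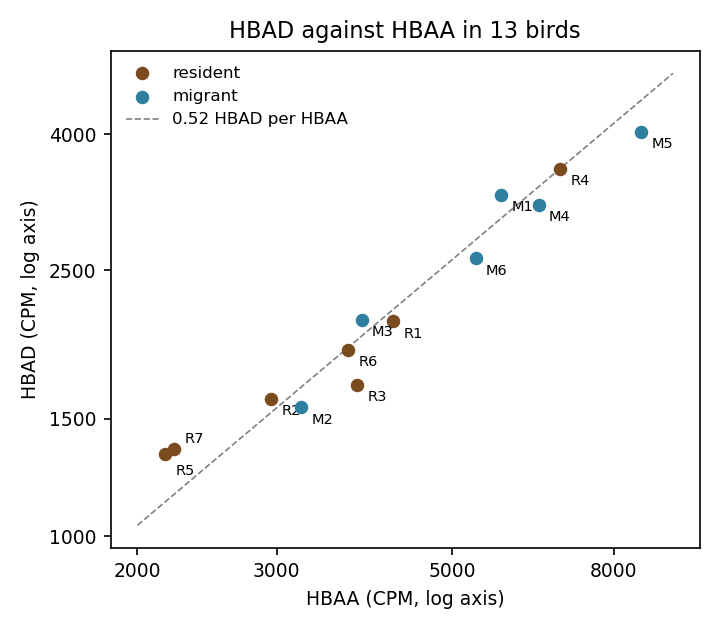
HBAD against HBAA in CPM, both on log axes, for 7 residents (R, brown) and 6 migrants (M, blue) with replicate numbers; the dashed line marks a constant 0.52 HBAD per HBAA. The birds lie along the line (r = 0.978), with the lowest birds, R5 and R7, above it and the highest bird, M5, below it. R3 also lies below the line and M1 above it.

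The ratio of the alpha genes was narrower in range than their levels. The counts stood at 0.445 to 0.612 HBAD per HBAA in residents (mean 0.535 ± 0.0591, SD, n = 7) and at 0.465 to 0.564 in migrants (0.506 ± 0.0399, SD, n = 6). These are ratios of counts and not per length, since no transcript lengths were used, so they do not give the molar ratio. The coefficient of variation over all birds was 9.82% for the ratio, against 42.6% for HBAA and 38.8% for HBAD as CPM. The log2 ratio differed by 0.074 between residents and migrants (exact two-sided permutation p = 0.357), less than the SD of 0.16 in residents and 0.11 in migrants. Leaving out any 1 bird gave differences of 0.041 to 0.12, none of which passed.

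The birds nonetheless differed in this ratio by more than counting error. HBAD made up 37.9% of the alpha counts in resident replicate 5 (Wilson 95% interval 37.3% to 38.6%) and 37.7% in resident replicate 7 (37.1% to 38.4%). It made up 30.8% in resident replicate 3 (30.2% to 31.4%), the lowest bird of all. Migrants ran from 31.8% in replicate 5 (31.4% to 32.2%) to 36.0% in replicate 1 (35.6% to 36.5%). The intervals cover counting error only, as read pairs amplified by PCR are not independent molecules. The SD of the log2 ratio was 8.48 times that expected from counting in residents and 7.09 times in migrants, and the chi-square per degree of freedom was 62.4 and 53.2.

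The ratio was set against the amount of blood transcript. Resident replicates 5 and 7, lowest in HBAA, had the highest ratios, and migrant replicate 5, highest in HBAA, had the lowest ratio among migrants. Other birds did not follow this order. Resident replicate 3 had the lowest ratio of all (0.445) at 3789 HBAA CPM. Migrant replicate 1 had the highest ratio among migrants (0.564) at 5759 HBAA CPM. HBAA counts also enter the ratio itself. The least-squares slope of log2 HBAD on log2 HBAA was 0.87 (standard error 0.056). The log2 ratio had r = -0.533 with the log2 summed share of counts (permutation p = 0.0626, adjusted 0.0861, Spearman's rho = -0.418), a relation in which both sides hold the same counts. Leaving out each bird gave r from -0.681 without resident replicate 3 (permutation p = 0.0162) to -0.405 without resident replicate 5 (permutation p = 0.192). The unadjusted permutation p was under 0.05 in 3 of these 13 fits. Without both libraries that lie apart r was -0.665 (permutation p = 0.0256). Without resident replicate 5 and migrant replicate 5, the birds of lowest and highest share, it was -0.273 (permutation p = 0.417). Leaving those birds out also narrows the range of the share. Within populations it was -0.595 in residents and -0.276 in migrants (exact permutation p of 0.157 and 0.590).

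**Figure D3:**
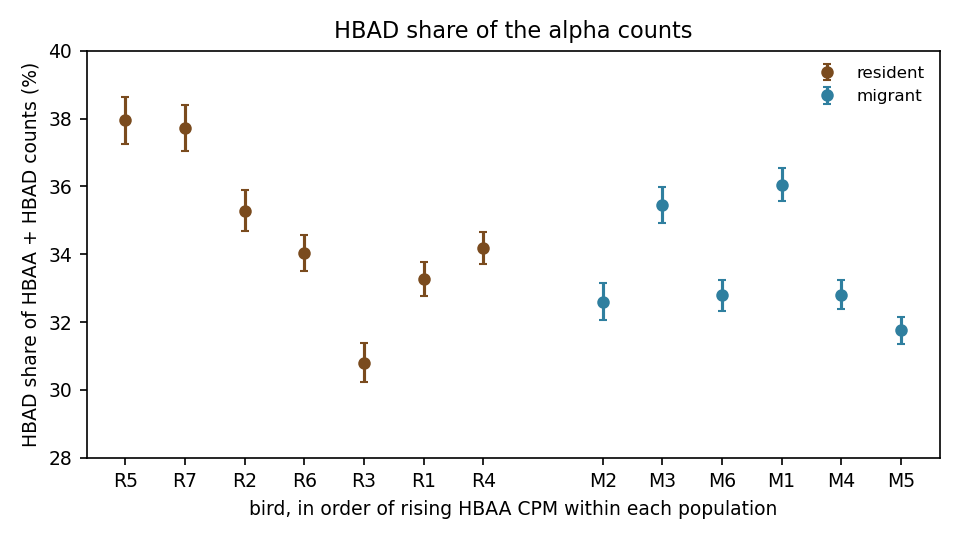
HBAD as a percentage of HBAA plus HBAD counts in each of 7 residents (R, brown) and 6 migrants (M, blue), in order of rising HBAA within each population; bars are Wilson 95% intervals for counting error, and the axis runs from 28% to 40%. R5 and R7 stand highest at 37.9% and 37.7% and R3 lowest at 30.8%, with intervals that do not overlap.

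Of the haemoglobin elements outside the alpha pair, not all are described here, and those that are do not stand for the rest. LOC100217854 (XP_012424859.1) is annotated as beta-like and as a low-quality protein model. It has a name here through a row held for its small p between populations. It followed the alpha genes over the 13 birds, and resident replicates 4, 7 and 5 had the most of it per HBAA count. Resident replicate 4 had 744 CPM and the other residents 157 to 210 CPM, while migrants had 199 to 502 CPM. Per 100 HBAA counts there were 10.9 beta-like counts in resident replicate 4, 9.41 in resident replicate 7 and 7.84 in resident replicate 5. The other residents had 4.44 to 5.32 and migrants 4.37 to 6.19. Beta-like followed HBAA with r = 0.787 and HBAD with r = 0.839 over all birds (permutation p of 0.00059 and 4e-05, adjusted 0.0013 and 0.00011). Within residents r with HBAA was 0.757 (exact permutation p = 0.0589) and Spearman's rho 0.393, and within migrants r was 0.908 (exact permutation p = 0.00556). The log2 fold change of beta-like was -0.16 (standard error 0.33) and -0.68 without resident replicate 4, beside -0.81 for HBAA and -0.75 for HBAD without that bird, and none of these passed. Reads shared between haemoglobin genes of similar sequence could not be examined, and uniquely aligned pairs only were counted, so the levels of beta-type elements are uncertain.

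**Figure D4:**
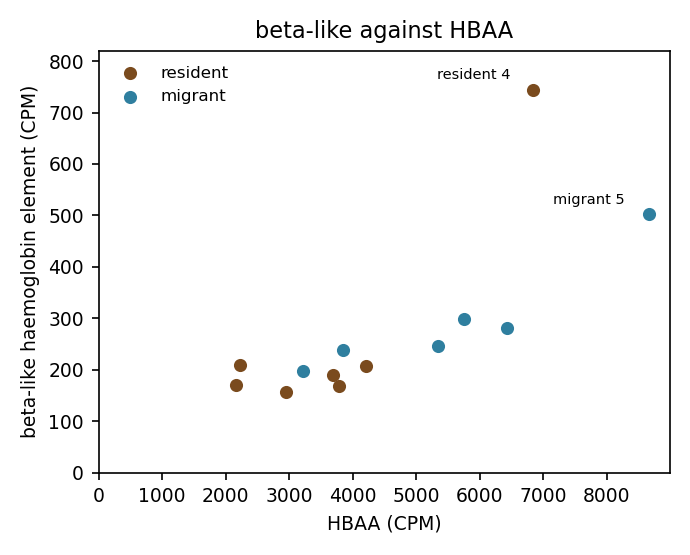
The beta-like haemoglobin element against HBAA, both in CPM on linear axes from 0, in 7 residents (brown) and 6 migrants (blue); each point is 1 bird. Resident replicate 4 stands apart at 744 CPM of beta-like, above migrant replicate 5 at 502 CPM, which had more HBAA.

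HBE1 and HBZ were close to absent. HBE1, the epsilon subunit, an embryonic chain in the chicken, had 1 to 15 counts in residents and 3 to 19 in migrants. Its relation with HBAA (r = 0.488, permutation p = 0.0902) and with HBAD (r = 0.493, permutation p = 0.0865) did not pass. Within residents r was -0.015 and -0.099 (exact permutation p of 0.978 and 0.819), and within migrants 0.685 and 0.747 (exact permutation p of 0.133 and 0.0889). Without resident replicate 4, which had 1 HBE1 count beside the highest HBAA of its population, r was 0.749 and 0.792 (permutation p of 0.0058 and 0.00296). Leaving out any other single bird kept the permutation p above 0.05. HBZ, the zeta subunit, an embryonic alpha-type chain, had 0 to 2 counts in residents and 0 in every migrant.

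Markers of other cells were set beside the alpha genes by their correlation with HBAA, as a description over birds that share libraries and scaling. The median r over all 9938 elements was -0.023. Of 20 red blood cell genes listed, only TSPO2, a translocator protein of red blood cell precursors, has a name here, and it was too low to test. It had 0 to 7 counts in residents, with 7 in replicate 3 and 4 in replicate 4, the resident highest in HBAA. Among migrants it had 15 counts in replicate 5, the bird highest in HBAA, and 2 in each other migrant. Of 20 haem and iron genes listed, 5 are given here, with a median r of 0.61. GLRX5, which serves iron-sulphur cluster assembly, had r = 0.650, ISCU, a scaffold for these clusters, 0.618, and FTH1, the ferritin heavy chain, 0.607. SLC40A1, the iron exporter ferroportin, had r = -0.671, and BNIP3L, which directs the removal of mitochondria in maturing red blood cells of mammals, 0.352. None of the 5 passed the population test, with a median log2 fold change of -0.045 beside 0.0020 over all elements. GLRX5 and BNIP3L, at -0.29 and -0.30, had an unadjusted p under 0.05, where 2.14% of all elements did in that direction. BNIP3L has a name here through a row held for its small p between populations. The 5 genes therefore cannot be set against that percentage. As the estimate for HBAA was also lower in residents, their r with HBAA cannot be set against the median of all elements either. Without both libraries that lie apart, r with HBAA was 0.687 for BNIP3L and 0.749 for GLRX5. It was 0.586 for ISCU, 0.552 for FTH1 and -0.817 for SLC40A1, and the median of the 5 was 0.586.

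Genes of vessels and of other blood cells had lower medians than this, in a comparison given without a test. VWF, the von Willebrand factor of endothelium, had r = 0.299 with HBAA, S1PR1, the sphingosine 1-phosphate receptor, -0.159, and MMRN2, an endothelial multimerin, -0.315, and the median of 4 endothelial genes was -0.044. Without both libraries that lie apart, MMRN2 had r = -0.487. White blood cell genes had a median of 0.20 over 3 genes, with IL2RG, a cytokine receptor chain of lymphocytes, at 0.258, the chemokine receptor CCR6 at -0.296, and CD74, a chaperone of MHC class II, at 0.203. Without those libraries IL2RG had r = 0.045 and the white blood cell median was 0.045. CSF1R, the receptor that marks microglia, had r = 0.145, and 0.287 without them. MMRN1, the only thrombocyte gene named, had 0 to 8 counts. Some glial genes ran with HBAA, as S100B, a calcium-binding protein of astrocytes, had r = 0.448 and PLLP, plasmolipin of myelin, 0.488. Without those libraries S100B had r = 0.458 and PLLP 0.363. The median of 4 oligodendrocyte genes was -0.087 with all birds. Among neuronal genes the median of 8 was -0.027, and -0.187 without those libraries, with GAP43, a growth cone protein, lowest at -0.623. For hypothalamic peptides the median of 5 was -0.192, and -0.316 without those libraries. They ran from CRH at -0.738 to NPY, neuropeptide Y, at 0.528. None of the measured genes of these lists passed edgeR's population test over all elements. The paper, using DESeq2, reported GNRH1 as higher in residents at an FDR under 0.05. At an unadjusted p under 0.05 in edgeR, log2 fold changes of residents over migrants were 1.62 for CCR6, 0.51 for MMRN2 and 0.29 for GAP43. They were 0.34 for OMG, a myelin glycoprotein, 1.25 for GNRH1 and -0.54 for NPY. Of all elements, 229 were higher and 213 lower at that level. MMRN1, CCR6, MMRN2, GAP43, OMG and NPY have names here through rows held for their small p between populations. The lists therefore cannot be set against all elements in this. The estimate for HBAA was itself lower in residents. The r of these genes with HBAA, and the list medians that hold them, therefore cannot be set against all elements either.

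**Figure D5:**
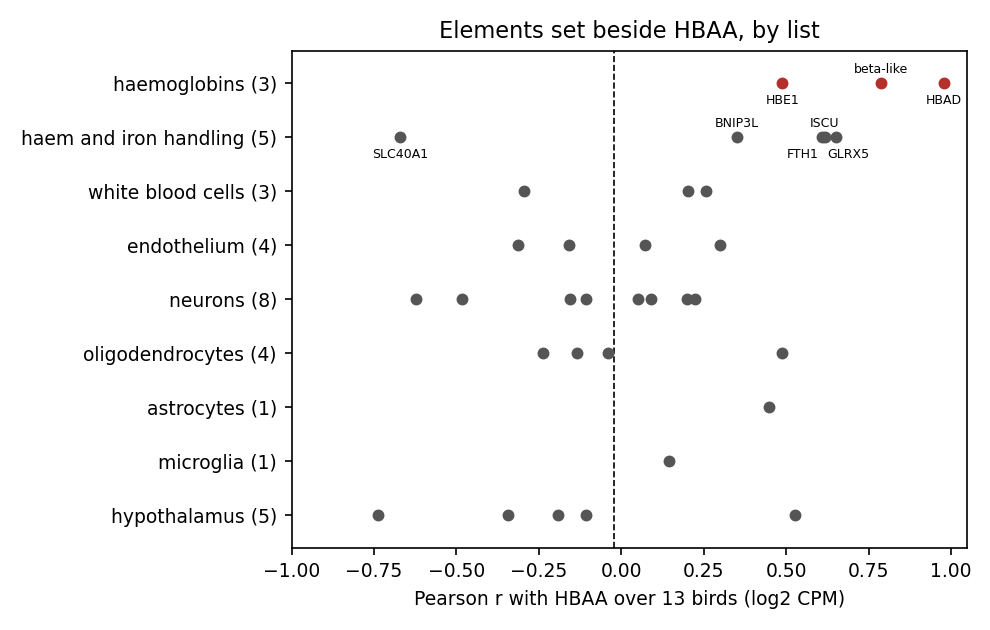
Pearson's r with HBAA over 13 birds (x axis, log2 CPM) for the tested members of each list, with the number of members in brackets; each point is 1 element and the dashed line is the median of all elements (-0.023). HBAD lies highest at 0.978. The haem and iron genes run from -0.671 for SLC40A1 to 0.650 for GLRX5. Endothelial, white blood cell and neuronal genes also lie on both sides of the line. Some members have names here through their small p between populations, so the lists cannot be set against the line.

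The elements most like the alpha genes outside the haemoglobins were then listed among those with a name. In likeness to HBAA, 5 elements without a name here exceeded every named one, and the highest had r = 0.939. The named list for HBAA began with PNKD (r = 0.855), a probable hydrolase, and CABP7 (0.855), a calcium-binding protein. UQCR10 (0.815), a subunit of respiratory complex III, C1H12orf57 (0.813), LOC100190738 (0.811), a putative ribosomal protein L35, and HDDC2 (0.808) came next, followed by STARD5 (0.806), a lipid transfer protein, RPL39 (0.798), a ribosomal protein, MED6 (0.797), a Mediator subunit, and CLYBL (0.797), a mitochondrial lyase. For HBAD the list began with CABP7 (0.872), LOC100190738 (0.847) and HDDC2 (0.840), shared 8 of its 10 names with that of HBAA, and held JMJD8 (0.813) and SERF2 (0.813) in place of the others. These names come from part of the gene table, and PNKD and STARD5 are among rows that the name table holds for their small p between populations. Without both libraries that lie apart, the 10 values for HBAA were 0.748 to 0.851. Over all elements outside the haemoglobins named here, 28 (0.282%) had r over 0.8 with HBAA. Whether elements without a name include further haemoglobins is not known here.

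The share of alpha transcript was set against depth. The log2 summed share of counts had r = -0.671 and Spearman's rho = -0.632 with the log2 total count (permutation p of 0.0129 and 0.0240, adjusted 0.0237 and 0.0441). The share is itself divided by the total count, and how far this shapes r was not tested. Within residents r was -0.623 (exact permutation p = 0.133) and Spearman's rho only -0.25 (exact permutation p = 0.595). Within migrants r was -0.923 (exact permutation p = 0.0194) and Spearman's rho -0.886 (exact permutation p = 0.0333). Without resident replicate 4 and migrant replicate 2, r over the other birds was -0.649 (permutation p = 0.0307). Without migrant replicate 5, r was -0.567 and the permutation p 0.0552. Without both libraries that lie apart, r was -0.602 (permutation p = 0.0499). The HBAD to HBAA ratio had r = 0.212 with the total count (permutation p = 0.488). The part of depth in the population values of HBAA and HBAD was not tested.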

How the data were processed

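The authors deposited 1 table of raw counts per bird, read pairs on each annotated element. According to the paper and the submitters' processing notes, polyA libraries from 200 ng of RNA with 12 PCR cycles were trimmed (Trimmomatic 0.33) and mapped to a draft assembly of the junco (STAR 2.5.3a), and uniquely aligned pairs were counted with featureCounts (the notes name Subread 2.0.0 and GSNAP). The library kit marks strand, but no source used here says whether counting used it.

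Gene names were taken from the study's supplementary table in a copy that holds 1223 of its rows (14140 are left out), first the rows of smallest adjusted p and after them rows by identifier. All 1223 matched, and 1124 were tested. Its values were not used. No genome or transcript length was used, so no coordinates or sequences are given.

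Counts were analysed as deposited with edgeR 4.0.16 in R 4.3.3 (TMM, quasi-likelihood test, adjusted p-values after Benjamini and Hochberg, threshold 0.05). A standard error is the log2 fold change over the square root of F. Log2 CPM used a prior count of 2. DESeq2 1.42.0, limma-voom (limma 3.58.1), other scalings and filters, a replicate block and leaving out birds were alternatives. Single values were compared by exact permutation, and relations by permutation of birds. The fit was tested on simulated data. No pair of libraries of 1 population differed by less than sampling noise (chi-square per element at least 7.25). The genes, lists and tests were chosen with earlier results of these data known. Named, apart from a few items that are not reported here, are haemoglobins, list members, and the 10 elements most like HBAA and HBAD.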

Additional observations from a re-analysis of the deposited data

Results flagged for a closer look

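In 20 groups of values, each a measure in 1 population, 4 had a bird far from the others. Chance gives about 1 in 20 for independent groups. These groups hold related measures of the same birds, so the count cannot be set against that rate. The gap to the nearest bird, as a part of the whole range, was 0.910 for beta-like CPM in resident replicate 4, 0.654 for HBAD CPM in the same bird, 0.671 for beta-like CPM in migrant replicate 5 and 0.592 for HBE1 CPM in resident replicate 1. The first 3 were the highest birds of their population for HBAA as well. What sets the beta-like level of resident replicate 4 apart was not tested.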

How the results depend on the processing

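HBAA and HBAD had lower estimates in residents under all 22 alternatives run for each, and none passed the adjusted threshold. Leaving out each bird gave log2 fold changes from -0.81 to -0.42 for HBAA and from -0.75 to -0.39 for HBAD. The count of elements called was 0 except with DESeq2, which gave 3. The count under an unadjusted 0.05, 442, was 271 with a replicate block and 673 without resident replicate 4. Leaving out each bird moved the difference in log2 CPM from -0.78 to -0.47 for HBAA and from -0.70 to -0.42 for HBAD, that in the log2 summed share from -0.69 to -0.43, that in the log2 ratio from 0.041 to 0.12, and r of HBAA with HBAD from 0.971 to 0.986. Without both libraries that lie apart, the differences for HBAA, HBAD and the share were -0.75, -0.64 and -0.68, past 0.05 by exact permutation. The beta-like log2 fold change ran from -0.68 to 0.062 over single birds, and was positive only without migrant replicate 5. It was -0.63 with DESeq2, whose unadjusted p was 0.000639 (adjusted 0.399), beside an unadjusted p of 0.638 in edgeR with all birds. In edgeR without resident replicate 4 the unadjusted p was 0.0014 (adjusted 0.697). The cause of the difference between the methods was not tested. Replicate numbers did not pair the birds, since same-numbered birds had correlations of -0.185 to 0.0625. With a replicate block, which leaves out resident replicate 7, the log2 fold changes were -0.49 and -0.46. The lowest library had 7108 HBAD counts, and what limits these values most was not tested.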
